A study of Mus musculus with 2 samples.

Results

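In the thalamus of mice with and without a cortical lesion, 84 nuclei of 38150 carried at least 2 unique molecular identifiers (UMIs, each standing for 1 captured RNA molecule) of Corin, and these are called Corin nuclei here. The sham library gave 12 of its 16373 nuclei and the injury library gave 72 of its 21777. Nuclei were kept where 200 to 7500 genes were detected and mitochondrial UMIs made up at most 2% of the total, and the Corin count alone chose the members. Corin itself is therefore described and not tested, and Gm20647, an antisense transcript inside Corin, was treated in the same way. Gm20647 had 3 UMIs in 3 of the 12 sham members and 72 UMIs in 38 of the 72 injury members.

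Single-nucleus RNA sequencing was carried out on the thalamus of the operated side from female C57BL/6J mice aged 3 months, 21 days after surgery. The injury group received a cortical ablation injury (CAI), in which sensory and motor cortex of 1 hemisphere was removed, and the sham group went through surgery without the ablation. Frozen tissue of 4 mice per group was pooled, and the nuclei were sorted on a DNA stain and captured in droplets for 3′ counting. No transgene was used, and the mice of a pool cannot be separated, so each group was 1 library. No difference between the libraries had a replicate check, every interval below is at 95% and covers counting error only, and no p-value is given. The limit given for a count of 0 is a floor of 3 counts of the total, which lies a little below the exact limit (26.5% for 0 of 12). What differed between the mice or the 2 dissections and what differed through the injury cannot be told apart.

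Corin encodes a membrane-bound serine protease that cuts the precursor of atrial natriuretic peptide into its active form, and it is best known from heart muscle. Natriuretic peptides (Nppa, Nppb, Nppc) act on receptors that make cyclic GMP (Npr1, Npr2), are removed by the clearance receptor Npr3, and signal inside the cell through the cyclic GMP-dependent kinases Prkg1 and Prkg2. Slc17a6 encodes a vesicular glutamate transporter that marks most excitatory neurons of the thalamus, and Gad1 encodes an enzyme that makes the inhibitory transmitter GABA.

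Corin lies on the minus strand at chr5:72300025-72504473 (GRCm38, GENCODE M21), and Gm20647 lies on the plus strand inside it at chr5:72316354-72368048. Whether the counting used the strand was not given in the sources used here, so reads of the pair may not be separable. The 250 bases before the RefSeq start of Corin, at chr5:72504541-72504790 on the minus strand of GRCm38.p6, are shown because this gene defined the nuclei, with the 2 CpG pairs in capitals.
Corin upstream: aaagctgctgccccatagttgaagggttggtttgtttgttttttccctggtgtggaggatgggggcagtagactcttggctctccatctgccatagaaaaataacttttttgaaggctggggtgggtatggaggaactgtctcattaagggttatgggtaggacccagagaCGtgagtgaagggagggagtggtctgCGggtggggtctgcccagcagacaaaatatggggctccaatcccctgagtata

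The 2 libraries differed in how many nuclei carried Corin and in how much of it those nuclei held. The share of Corin nuclei was 0.0733% in the sham library (interval 0.0379 to 0.128) and 0.331% in the injury library (0.259 to 0.416), and so 4.51-fold higher in the latter (2.43 to 9.13). A Corin nucleus held a median of 2 Corin UMIs in the sham library (range 2 to 12) and 3 in the injury library (range 2 to 16). Members carried 39 of the 115 Corin UMIs of the sham library and 292 of the 428 of the injury library. At the threshold, 7 sham and 22 injury nuclei had exactly 2 Corin UMIs, while 76 sham and 136 injury nuclei just outside it had 1. Of those with 1 UMI, 1 sham and 21 injury nuclei lay in the neuron cluster that held most of the members, against 1 and 10 of those with 2 UMIs.

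**Figure D1:**
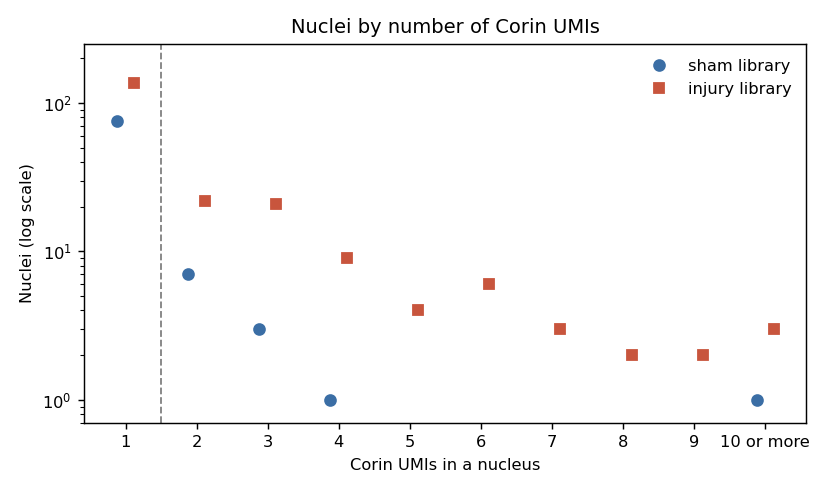
Number of nuclei (log scale) against the Corin UMIs in a nucleus, for the sham library (circles) and the injury library (squares); empty positions had no nucleus and the dashed line marks the threshold of 2. Beyond 4 UMIs the sham library had a single nucleus, with 12 UMIs.

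The median depth of Corin nuclei was 6258 UMIs in the sham library and 5815 in the injury library, against 7540 and 7515 in the remaining neurons, which are all 14246 sham and 17257 injury nuclei of neuron clusters that were not members. Among these clusters 3, with 136 sham and 376 injury nuclei, were led by genes of other cells: a pair by the oligodendrocyte genes Prr5l and Aspa, and one by Atp13a5, Itih5 and Abcc9, where the 5 mural genes summed to 2237 CPM and the 9 neuronal ones to 226. They made up 0.948% of remaining sham and 2.18% of remaining injury neurons, 89.1% of their nuclei were called doublets, and 1 sham member, with 12 Corin UMIs, lay in them. The 2 libraries shared 101 barcodes, none of which belonged to a Corin nucleus. Scrublet, a caller of droplets with more than 1 nucleus, marked 1 of 12 sham and 16 of 72 injury Corin nuclei. It marked 13.4% of all sham and 17.5% of all injury nuclei, and 10.1% and 14.3% of the remaining neurons. The share marked in a library was set by its size, at 0.8% per 1000 nuclei. All 16 marked injury members lay outside the neuron cluster with most members, where none of the 42 injury members was marked, which allows a share of up to 7.14%. The median depth of those 42 was 4883 UMIs, and that of the 30 other injury members, of which 53.3% were marked, was 9308.5.

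Slc17a6, on chr7:51622006-51671119, was detected in 4 of 12 sham Corin nuclei (33.3%, 9.92 to 65.1) and in 39 of 72 injury Corin nuclei (54.2%, 42 to 66.0). No Corin nucleus held more than 6 UMIs of it. The remaining neurons had it in 56.5% of sham and 48.8% of injury nuclei, so its presence did not set Corin nuclei apart at their own depth. Its level was 46.4 CPM in sham members (17.0 to 101), from 6 UMIs, against 148 in remaining sham neurons. In injury members it was 141 CPM (111 to 177) against 121. After every nucleus was thinned to 3000 UMIs, 26 of 66 injury Corin nuclei (39.4%, 27.6 to 52.2) and 26.2% of the remaining injury neurons (25.5 to 26.9) still had it. In the sham library the thinned shares were 16.7% of 12 Corin nuclei (2.09 to 48.4) and 31.9% of remaining neurons. Oligodendrocyte clusters, which should lack the gene, had it in 3.35% of sham and 2.95% of injury nuclei, at a median of 1558 and 1668 UMIs.

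Gad1, on chr2:70553072-70602014, was found in fewer members. It had a UMI in 2 of 12 sham Corin nuclei (16.7%, 2.09 to 48.4) and in 7 of 72 injury Corin nuclei (9.72%, 4.00 to 19.0), while the remaining neurons had it in 9.32% and 14.2%. Thinned to 3000 UMIs, 2 of 66 injury Corin nuclei (3.03%, 0.369 to 10.5) and 8.58% of remaining injury neurons had Gad1. Oligodendrocyte clusters had it in 0.0984% of sham and 0.813% of injury nuclei. Both genes together were seen in 3 injury Corin nuclei, 1 of them a called doublet. No sham one had both, a count of 0 of 12 that allows a share of up to 25.0%. Neither was seen in 6 sham and 29 injury members. No share of remaining neurons with both or neither is set beside these counts, so they are not read as a trait of Corin nuclei. A Gad1 share above that of other neurons was not detectable at this depth in either library. Its level in sham members was 85.1 CPM (42.5 to 152) against 23.2 in remaining sham neurons, from 11 UMIs in 2 nuclei. In injury members it was 24.8 CPM (13.2 to 42.4) against 36.6.

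In the injury library 1 Gad1-bearing member lay in the neuron cluster with most members and 6 lay outside it. By Corin count, Gad1 was in 2 of 22 injury members with 2 Corin UMIs, 1 of 21 with 3 and 4 of 29 with 4 or more. Of the 7 Gad1-bearing injury members, 4 were called doublets, 3 lay in clusters of mixed nuclei, and 1 had an Ebf2, Ebf3 or Postn UMI. The 2 sham nuclei with Gad1, with 5 and 6 UMIs of it, lay in a neuron cluster led by Gm38505, Cdh23 and Pax6, a transcription factor of forebrain and midbrain development. That cluster has Gad2, a second GABA-making enzyme, among its 10 leading genes.

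Neurons were clustered on genes that did not include Corin, Gm20647 or the genes of any list, after the 2 libraries had been aligned. A cluster led by Ebf2, an early B-cell factor that acts as a transcription factor in developing neurons, held 42 of 72 injury members (58.3%, 46.1 to 69.8) and 1 of 12 sham members (8.33%, 0.211 to 38.5). It is called the Ebf2 cluster and contained 74 sham and 175 injury nuclei. The cluster led by Gm38505, Cdh23 and Pax6 held 6 of 12 sham members (50%, 21.1 to 78.9) and 6 of 72 injury members (8.33%, 3.12 to 17.3). A cluster led by Lmx1a and Ttc6 held 1 and 8. In the injury library 8 members lay in mixed clusters and 4 in astrocyte clusters, and the others were spread 1 to a cluster in both libraries.

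**Figure D2:**
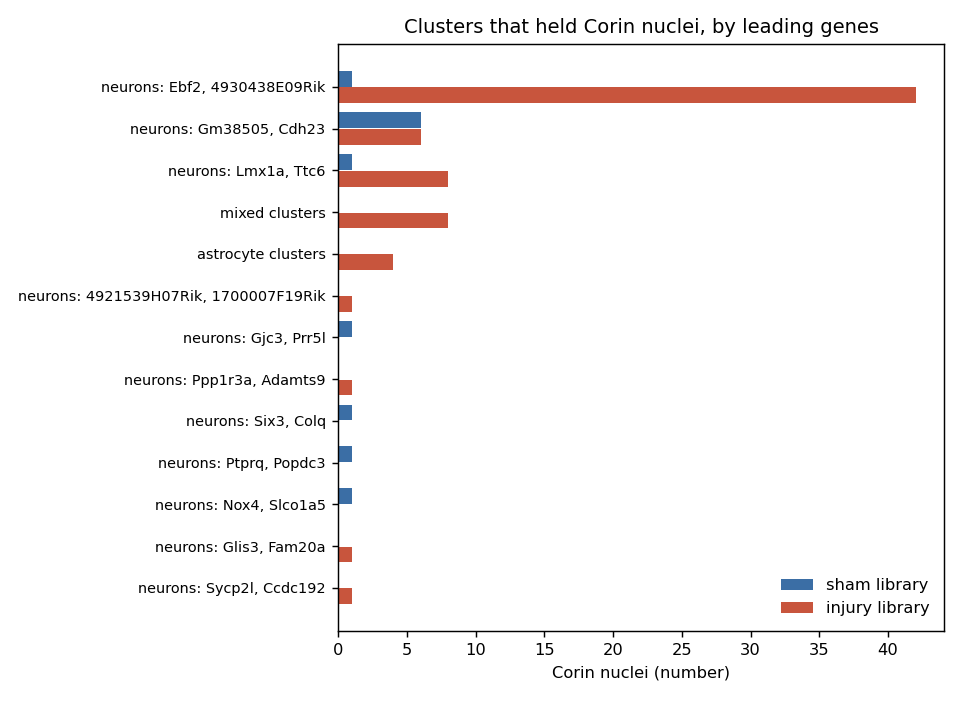
Number of Corin nuclei in each cluster that held any, for the sham library (blue) and the injury library (red), with each neuron cluster given by its 2 leading genes. The Ebf2 cluster held 1 sham and 42 injury Corin nuclei, while the cluster led by Gm38505 held 6 of each.

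The difference in share between the libraries was smaller outside the Ebf2 cluster and without called doublets. Outside the Ebf2 cluster, 11 of 16299 sham nuclei (0.0675%, 0.0337 to 0.121) and 30 of 21602 injury nuclei (0.139%, 0.0937 to 0.198) were members, a fold of 2.06 (1.002 to 4.55). With called doublets left out as well, 10 of 14108 sham nuclei (0.0709%) and 14 of 17796 injury nuclei (0.0787%) remained, a fold of 1.11 (0.459 to 2.79). These cuts were chosen after the values were seen, and the share of called doublets in a library was set by its size. Across neuron clusters the Corin level in the injury library was 254 CPM (UMIs scaled to 1000000 in all; 220 to 291) in the Ebf2 cluster, 3.47 (2.59 to 4.55) in the Lmx1a cluster and 2.35 (1.72 to 3.14) in the Gm38505 cluster. In the sham library the same clusters had 9.81 (2.02 to 28.7), 1.08 (0.607 to 1.79) and 2.59 (1.74 to 3.73). The Gm38505 cluster, the largest of those that held members in both libraries, thus had overlapping Corin levels in the 2 libraries.

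Ebf2-type genes were also found in some injury members outside that cluster. At least 1 UMI of Ebf2, Ebf3 or Postn was present in 55 of 72 injury Corin nuclei (76.4%, 64.9 to 85.6), in all 42 of those in the Ebf2 cluster and in 13 of the 30 outside it, of which 7 were called doublets. Of the 14 outside it that were not called doublets, 8 had none of these genes. Injury neurons without a Corin UMI had Ebf2 in 3.26%, Ebf3 in 6.65% and Postn in 0.724% of nuclei. Ebf3 is also a leading gene of the Lmx1a cluster, which held 8 injury members. In the sham library the only member with a UMI of Ebf2, Ebf3 or Postn was the 1 in the Ebf2 cluster. None of the other 11 had any, which allows a share of up to 27.3%.

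**Figure D3:**
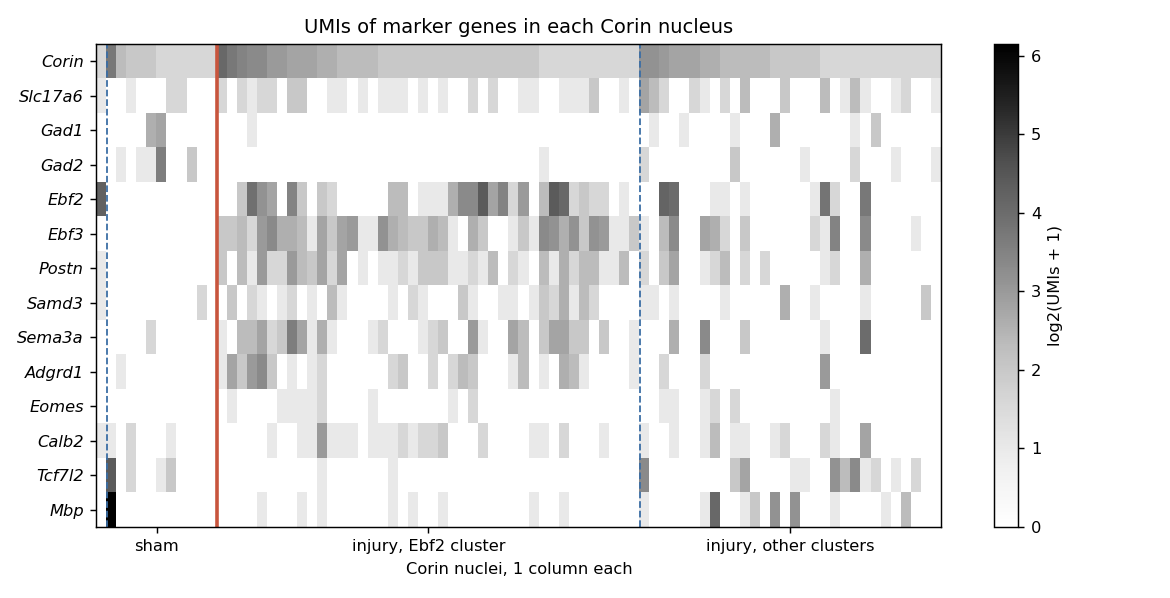
UMIs of 14 genes, as log2(UMIs + 1), in each of the 84 Corin nuclei, 1 column a nucleus. The red line parts sham from injury nuclei, and dashed lines part the members of the Ebf2 cluster (left) from the rest within each library. Ebf3 and Postn are spread over the injury members of the Ebf2 cluster, and the darkest Mbp column is the sham nucleus with 12 Corin UMIs.

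The Ebf2 cluster was not uniform, and Corin and Gad1 sat in different parts of it. Clustered again, it fell into 4 sub-clusters. Sub-cluster 0, led by Drd3 (a dopamine receptor), Gm34609 and Cpa6, held 69 sham and 51 injury nuclei. It had Corin in 4 of 120 nuclei (3.33%, 0.916 to 8.31) and Gad1 in 24 (20%, 13.3 to 28.3). Sub-cluster 1, led by Hrh1 (a histamine receptor), Plce1 (a phospholipase C) and Nek7, held 2 sham and 62 injury nuclei. Corin was detected in 49 of its 64 nuclei (76.6%, 64.3 to 86.2) and Gad1 in 4 (6.25%, 1.73 to 15.2). Sub-cluster 2, led by Chn2 and Alk, held 3 and 30 nuclei, with Corin in 1 and Gad1 in 12 of 33 (36.4%, 20.4 to 54.9). Sub-cluster 3, led by C130060K24Rik and Heg1, held no sham and 32 injury nuclei, with Corin in 11 (34.4%, 18.6 to 53.2) and Gad1 in 2. Slc17a6 was detected in all 4, in 42.5%, 50%, 30.3% and 62.5% of nuclei. The sub-clusters are descriptions, since their genes were the ones used to make them.

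**Figure D4:**
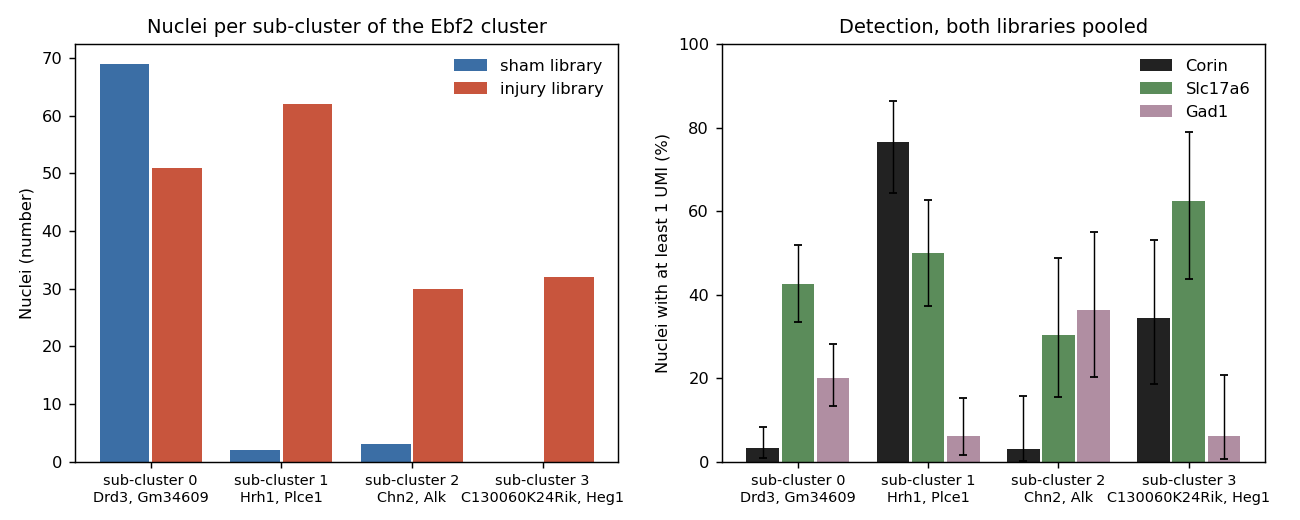
Left, number of sham (blue) and injury (red) nuclei in each sub-cluster of the Ebf2 cluster. Right, percent of nuclei with at least 1 UMI of Corin, Slc17a6 or Gad1 with both libraries pooled and 95% exact binomial intervals. Sub-cluster 1, with Corin in 76.6% of nuclei, held 2 sham and 62 injury nuclei.

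Of the 43 members of the Ebf2 cluster, sub-cluster 1 held 35 and sub-cluster 3 held 5, all from the injury library. The 1 sham member lay in sub-cluster 0. Sub-cluster 1 made up 0.0140% of sham neurons (0.00170 to 0.0507) and 0.358% of injury neurons (0.275 to 0.459). Sub-cluster 3 made up 0.185% of injury neurons (0.126 to 0.261), while the 0 of 14258 sham neurons allow up to 0.0210%. Sub-cluster 0 ran the other way, with 0.484% of sham neurons (0.377 to 0.612) and 0.295% of injury neurons (0.219 to 0.387). Other neuron clusters were also nearly of 1 library. The cluster led by Ano2 had 1 sham and 402 injury nuclei, that led by 4921539H07Rik had 0 and 281, and that led by AC171111.1 had 0 and 221, with a single Corin nucleus among them. A difference in the tissue taken and a change of the neurons cannot be told apart for such clusters.

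Postn and Adgrd1 were detected in sub-clusters 1 and 3 of the injury library and not in its sub-cluster 0, while Sema3a and Ebf3 were present in all 3 and lowest in sub-cluster 0. Postn, which encodes the secreted matrix protein periostin, had 445 CPM in sub-cluster 1 and 395 in sub-cluster 3, with 0 UMIs in injury sub-cluster 0. Adgrd1, an adhesion receptor, had 304 and 555 CPM, also with 0 UMIs in sub-cluster 0. Sema3a, a secreted axon guidance factor, had 484 and 1138 CPM against 36.5, and Ebf3 had 733 and 1040.5 against 137. Sub-cluster 2 had Sema3a at 665 and Ebf3 at 772 CPM and Postn at 199 CPM, from 26 UMIs in 40% of its injury nuclei, but 0 UMIs of Adgrd1. Eomes, a T-box transcription factor named here after its values were seen, was in 27.4% of sub-cluster 1 and 15.6% of sub-cluster 3 nuclei and in none of sub-clusters 0 and 2. Ebf2 itself was common to all, from 726 CPM in sub-cluster 1 to 3247 in sub-cluster 2.

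Sub-cluster 0 was the one place where the Ebf2 cluster could be set side by side in the 2 libraries. Drd3 was at 251 CPM in both libraries. Ebf2 was at 1699 CPM in sham and 1859 in injury (log2 ratio 0.13, −0.06 to 0.32), Reln, a secreted glycoprotein of neuronal positioning, at 717 and 624 (−0.20, −0.52 to 0.12), and Calb2, the calcium-binding protein calretinin, at 146 and 137 (−0.10, −0.82 to 0.61). Corin was at 10.4 and 18.2 CPM (0.80, −1.76 to 3.57), from 3 and 4 UMIs. Gad1 was at 41.8 and 86.6 CPM (1.05, −0.07 to 2.23) and Slc17a6 at 118 and 155 (0.39, −0.34 to 1.12). Cpa6 was higher in the injury nuclei, at 784 and 1016 CPM (0.38, 0.10 to 0.65).

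Against the remaining neurons, members were at least 4-fold higher in both libraries for 9 of the 2488 genes with at least 50 UMIs in Corin nuclei (0.362%), and in the injury library for 30 (1.21%). These 9 were Samd3, Ebf2, 4930438E09Rik, Postn, Rab3b, Hs3st2, Trpc6, Man1a and Rftn1. The sham side of this list was thin, with 129207 UMIs in all and often a few nuclei behind a value. All 18 sham Ebf2 UMIs, all 4 of 4930438E09Rik and the single Postn UMI came from 1 nucleus each, and without the sham member of the Ebf2 cluster these 3 genes left the list. Without the whole Ebf2 cluster, 2 genes passed in both libraries, Trpc6 and St18, of which St18 was named after its values were seen. St18 is also among the leading genes of the cluster led by Gjc3, Prr5l and Aspa, and oligodendrocyte clusters had it at 4244 CPM in sham and 4201 in injury. All 23 of its sham UMIs in members lay in 1 called doublet, the nucleus with 12 Corin UMIs, and 45 of its 46 injury UMIs in members outside the Ebf2 cluster lay in called doublets. When the 3 clusters led by genes of other cells were left out of the remaining neurons, which was chosen after seeing the data, 10 genes passed in both libraries and 31 in the injury library, and these included all 9 and all 30.

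The genes of this paragraph and the next had the largest folds over remaining neurons in the injury library. That their intervals there did not include equal levels follows from that choice and is not a separate result. Postn was at 248 CPM in injury Corin nuclei and 2.09 in remaining neurons (log2 ratio 6.89, 6.58 to 7.19), with a UMI in 47 of 72 members and 0.8% of remaining neurons. Samd3 was at 109 against 1.77 CPM (5.94, 5.50 to 6.35), and in sham members at 23.2 against 0.665 (5.13, 2.82 to 6.72) from 3 UMIs in 2 nuclei. Ebf2, on chr14:67233292-67430918, was at 459 against 18.1 CPM (4.67, 4.47 to 4.86), with UMIs in 38 of 72 members. Its antisense neighbour 4930438E09Rik, at chr14:67332042-67397742 inside Ebf2, was at 97.2 against 4.44 CPM, and reads of this pair may not be separable either. Ebf3, on chr7:137193673-137314445, was at 417 against 18.6 CPM (4.48, 4.28 to 4.68), while sham members had no UMI of it and sham remaining neurons had 17.9 CPM. Sema3a was at 246 against 10.3 CPM (4.58, 4.31 to 4.84) and Adgrd1 at 147 against 8.91 (4.04, 3.69 to 4.37). In sham members these 2 were at 15.5 and 7.74 CPM, from 2 UMIs and 1 UMI.

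**Figure D5:**
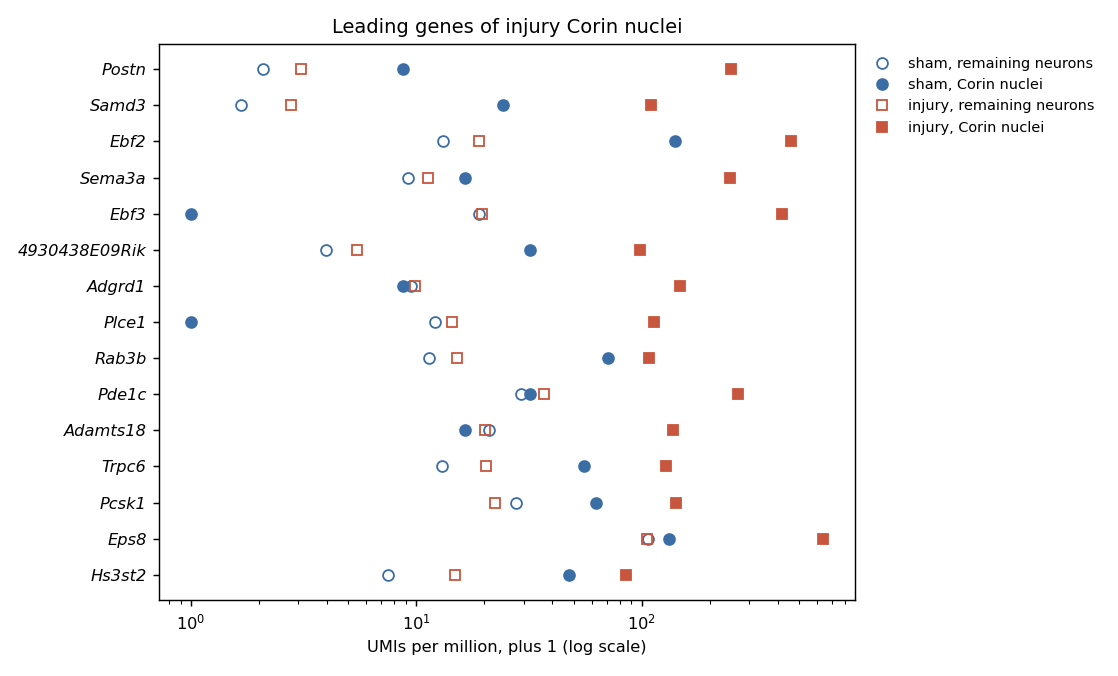
CPM plus 1 (log scale) of the 15 genes with the largest fold of injury Corin nuclei over remaining injury neurons, for Corin nuclei (filled) and remaining neurons (open) of the sham (circles) and injury (squares) libraries. Postn was at 248 in injury Corin nuclei and 7.74 in sham Corin nuclei, and Ebf3 and Plce1 had no UMI in sham Corin nuclei.

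Other genes at least 4-fold higher in injury members had smaller ratios. Pcsk1, a protease that processes prohormones, was at 141 against 21.4 CPM (2.72, 2.37 to 3.05) and was detected in 41 of 72 members. Pde1c, a calcium-dependent phosphodiesterase, was at 267 against 35.8 CPM (2.90, 2.64 to 3.14), Plce1 at 112 against 13.5 (3.06, 2.66 to 3.44), and Eps8, a regulator of actin, at 635 against 105 (2.60, 2.44 to 2.76). Adamts18, a secreted metalloprotease, was at 137 against 19.2 CPM (2.83, 2.48 to 3.17).

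The next genes were named for the smaller of their folds in the 2 libraries. That they were above remaining neurons in both is therefore not a separate result. The sham values of Rab3b, Trpc6 and Hs3st2 rested on 9, 7 and 6 UMIs in 4, 3 and 3 nuclei. Rab3b, a small GTPase of synaptic vesicles, had log2 ratios of 2.74 (1.61 to 3.67) in sham and 2.91 (2.50 to 3.30) in injury. Trpc6, a cation channel, had 2.17 (0.85 to 3.21) and 2.73 (2.36 to 3.08), with 5 of its 7 sham UMIs in 1 nucleus. Hs3st2, which sulfates heparan chains, had 2.85 (1.40 to 3.97) and 2.60 (2.13 to 3.03). Man1a, a Golgi mannosidase, had 2.23 and 2.07, although 20 of its 26 sham UMIs came from 1 nucleus. Rftn1 had 2.61 and 2.06 with UMIs in 7 of 12 sham members. Pou2f2, Gabrg1 (a GABA receptor subunit), Hcrtr2 (an orexin receptor), Sgcd, Efna5 and Adcy2 completed the 15 named by the fixed rule, with log2 ratios of 1.45 to 2.25 in sham and 1.44 to 2.06 in injury. For Sgcd, 104 of 157 sham UMIs were from 1 nucleus, and for Adcy2 42 of 61.

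The rest of the natriuretic pathway was uneven. None of the 3 ligand genes Nppa, Nppb and Nppc had a UMI in any of the 84 nuclei, and neither did the receptor Npr1, which allows up to 23.2 CPM in sham and 5.72 CPM in injury members. In remaining injury neurons these 4 genes were at 0.602, 0.0196, 1.34 and 3.79 CPM, so their absence from members was not detectable as a difference at this depth. Npr2 had 38.7 CPM in sham (12.6 to 90.3) and 21.0 in injury members (10.5 to 37.5), against 31.7 and 29.3 in remaining neurons. The clearance receptor Npr3 had 1 UMI in all. The proprotein convertase Furin, at 7.74 CPM in sham and 11.4 in injury members, and its relative Pcsk6, which can activate corin, at 38.7 and 15.2, had 1 to 8 UMIs in a library.

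Besides Corin, only Prkg1 and Prkg2 of the natriuretic list had at least 50 UMIs in members, and neither was 4-fold above remaining neurons in either library. Prkg2 was at 175 CPM in injury members (141 to 215) and 54.8 in remaining injury neurons (53.7 to 56.0), and at 285 CPM (219 to 366) in the 42 members of the Ebf2 cluster, of which 28 had a UMI. In sham members it was at 23.2 CPM (4.79 to 67.9), from 3 UMIs, and in remaining sham neurons at 59.1 CPM. Within the injury part of the Ebf2 cluster it had 78 UMIs in sub-cluster 1 and 48 in sub-cluster 3, against 3 in sub-cluster 2 and 0 in sub-cluster 0. Prkg1 was at 1750 CPM in injury members and 1300 in sham members, against 880 and 837 in remaining neurons, and 89 of its 168 UMIs in sham members came from 1 nucleus. Pde2a, a phosphodiesterase stimulated by cyclic GMP, was at 32.4 CPM in injury members (18.9 to 51.9) and 64.4 in remaining neurons, and had 0 UMIs in the injury members of the Ebf2 cluster, which allows up to 13.8 CPM.

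Many other transmitter and peptide genes had no UMI in members. Slc17a8 and, among inhibitory genes, Slc32a1 (the vesicular GABA transporter) and Slc6a5 (a glycine transporter) had no UMI in any member, and 7 of 10 genes for amines and acetylcholine and 14 of 25 neuropeptide genes had none. A count of 0 allows up to 23.2 CPM in sham and 5.72 CPM in injury members. In remaining injury neurons Slc17a8, Slc32a1 and Slc6a5 were at 3.62, 4.56 and 0.333 CPM. The highest there of the other genes at 0 were Slc5a7, at 6.74 CPM, and Tac2, at 4.64. No share over all genes is set beside these counts, so they are not read as a trait of Corin nuclei. The summed level of the 25 neuropeptide genes was 92.9 CPM in sham and 74.3 in injury members, against 100.2 and 96.6 in remaining neurons. In sham members some of these genes had intervals above the level of remaining neurons, and they are named here for that, so it is not a separate result. The GABA and glycine list summed to 240 against 98.0 CPM, with Gad2 at 132 (76.6 to 211) against 46.0 from 17 UMIs in 5 of 12 nuclei, 11 of them in 1 nucleus. The Gm38505 cluster, which held 6 of the 12 sham members, had Gad2 at 253 CPM with both libraries pooled. The Gad2 level of sham members is therefore not read as a trait of Corin nuclei. The amine and acetylcholine list summed to 116 against 36.4 CPM, with Ddc, which makes dopamine and serotonin from their precursors, at 61.9 (26.7 to 122) against 6.95 and Slc18a2, a vesicular transporter of amines, at 54.2 (21.8 to 112) against 16.0, from 8 and 7 UMIs in 3 nuclei each. The peptide gene Sst was at 23.2 (4.79 to 67.9) against 2.86 CPM, from 3 UMIs. In injury members Slc18a2 was at 32.4 (18.9 to 51.9) against 17.5 CPM, while Gad2 was at 21.0 (10.5 to 37.5) against 63.6.

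Region markers set the Ebf2 cluster members apart from the bulk of thalamic neurons, though the low thalamic sum was shared by Corin nuclei as a whole. It was 1873 CPM in sham members, against 3853 in remaining sham neurons, and 1847 in all injury members. The 12 thalamic genes summed to 1734 CPM in injury members of the Ebf2 cluster and 3633 in remaining injury neurons. Tcf7l2, a transcription factor of thalamic neurons, was at 9.20 against 457 CPM, and Lef1, its relative, at 9.20 against 310. Calb2 went the other way, at 152 against 19.1 CPM. Nwd2, of the habenula list, was at 27.6 against 567 CPM, and Prox1 had no UMI against 91.5 CPM. The 12 prethalamic genes summed to 23.0 CPM against 145, and the 15 hypothalamic genes to 4.6 against 25.6. The cortex and hippocampus list was higher, at 327 against 188 CPM, with Cux2, a transcription factor of the upper cortical layers, at 289.8 against 155, and the midbrain and pretectum list was at 13.8 against 9.09. Tbr1, a T-box factor of the cortical list, was at 32.2 against 1.09 CPM from 7 UMIs, while Neurod2, Emx1, Fezf2 and C1ql2 of that list had no UMI in any member. No list gives the Ebf2 cluster a regional name.

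Markers of other cells were present in some members. The 8 oligodendrocyte genes summed to 1076 CPM in sham members and 295 in injury members, but to 73.6 CPM in the injury members of the Ebf2 cluster, against 68.4 and 124 CPM in remaining sham and injury neurons, or 45.2 and 69.7 without the 3 clusters led by genes of other cells. The sham value came mostly from the nucleus with 12 Corin UMIs, a called doublet in a cluster led by Gjc3, Prr5l and Aspa, which held all 70 Mbp UMIs of the sham members. The 8 astrocyte genes summed to 155 CPM in sham and 381 in injury members, with 143 in the Ebf2 cluster members and 251 in remaining injury neurons. The 8 microglia genes summed to 77.4 and 135 CPM, against 115 and 127 in remaining neurons, with Tmem119, C1qa and Inpp5d at 0 in members, as were Ermn of the oligodendrocyte list and Gja1 of the astrocyte list. Endothelial, mural and ependymal lists summed to 0 CPM in sham members and to at most 3.81 CPM in injury members. The part of these cells in the results was not tested.

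Set against each other, injury members were at least 2-fold above sham members for 175 of 2488 genes (7.03%) and at least 2-fold below for 136 (5.47%), with a median log2 ratio of −0.05 over all 2488. The 2 sets came from different clusters, so this contrast compared different mixes of neurons. The 8 largest differences each way were taken from genes whose counting interval did not include equal levels. That their intervals lie to 1 side is therefore not a separate result. Those towards injury were in Ebf3, Nfib, Epha3, 4930511M06Rik, Plce1, Ccdc192, Postn and 5530401A14Rik. All 8 had 0 to 2 UMIs in sham members, and so passed the UMI filter through injury members. That filter used the sum over both libraries, with 129207 UMIs in sham members and 524711 in injury members. At the same level, a gene found only in injury members passed it more readily than one found only in sham members. The split of 175 and 136 genes was not corrected for this. Ebf3 had 0 UMIs in the 12 sham nuclei and 219 in 51 of the 72 injury nuclei. The exact lower limit of its log2 ratio was 3.86. Nfib, a transcription factor, had 0 and 90 UMIs, with a lower limit of 2.56. Plce1 had 0 and 59 UMIs, with a lower limit of 1.93. Epha3, an ephrin receptor, had 2 UMIs (15.5 CPM) in sham and 445 (848 CPM) in injury, a log2 ratio of 5.78 (3.91 to 8.83).

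Most of these UMIs came from the Ebf2 cluster. It supplied 166 of 219 for Ebf3, 347 of 445 for Epha3, 123 of 193 for 5530401A14Rik and 100 of 130 for Postn, but 41 of 90 for Nfib and 19 of 59 for Plce1. In the Gm38505 cluster, which had 6 members in each library, Ebf3 and Nfib had 0 UMIs in both, Epha3 had 0 and 2, and Plce1 had 0 and 14. Postn had a log2 ratio of 5 (2.50 to 10.3) as pooled. With a prior of 0.5 UMI it was 4.42 as pooled and 1.61 when both libraries were weighted to the same mix of clusters. The weighted value for the Ebf2 cluster rests on 1 sham nucleus.

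Of the 8 largest differences towards sham, 6 rested on 1 nucleus. The sham member with 12 Corin UMIs held 106 of 107 sham UMIs of 9630013A20Rik, all 35 of Synpr, 50 of 52 of Sox2ot, 70 of 76 of Nckap5, all 70 of Mbp (a myelin protein) and 21 of 28 of Gm13187. Without it, the log2 ratios of 9630013A20Rik, Synpr, Sox2ot, Nckap5 and Mbp changed sign, to 1.003, 2.77, 1.14, 0.40 and 4.44. Kcnip4, a subunit of potassium channels, was spread more widely, with UMIs in 12 of 12 sham and 64 of 72 injury members, although 484 of its 1850 sham UMIs lay in the nucleus with 12 Corin UMIs and 525 in another. It was at 14318 CPM in sham and 2790 in injury (−2.36, −2.46 to −2.26). In the Gm38505 cluster Kcnip4 had 312 UMIs in the 6 sham members and 86 in the 6 injury members. These counts are not scaled to depth. The deepest of these sham members held 30594 UMIs of all genes, and the deepest of these injury members 9025. Zfp804b had 182 UMIs in 7 of 12 sham nuclei and 118 in 22 of 72 injury nuclei (−2.65, −2.99 to −2.30).

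Of 4 synaptic and channel gene lists, the channel list had the lowest median, which was not so with at least 1 Corin UMI, where it was −0.044 beside −0.016 over all genes and −0.092 for the presynaptic list. The median log2 ratio was −0.06 over 26 glutamatergic synapse genes, −0.17 over 14 GABA synapse genes and 0.01 over 16 presynaptic genes, beside −0.05 over all genes, of which 7.03% were at least 2-fold higher and 5.47% at least 2-fold lower. For the first 2 lists the summed UMIs went the other way, at 0.09 (0.02 to 0.15) and 0.23 (0.13 to 0.34). Of the glutamatergic genes 6 were at least 2-fold higher and 3 at least 2-fold lower, from Grik3, a kainate receptor, at −1.53 (−2.28 to −0.76) to Grm8, a metabotropic receptor, at 3.67 (3.03 to 4.39), which was in 5 of 12 sham and 65 of 72 injury members. In the GABA list, from Gabra4 at −0.67 (−1.44 to 0.15) to Gabrb2 at 0.89 (0.45 to 1.37), and in the presynaptic list, from Rims2 at −0.77 (−1.02 to −0.53) to Nrxn2 at 0.75 (−0.17 to 1.81), none reached 2-fold in either direction. The 20 excitability channel genes had a median of −0.42, with none at least 2-fold higher and 3 at least 2-fold lower, Kcnc2 being lowest at −1.87 (−2.15 to −1.60) and Cacna1i highest at 0.66 (−0.50 to 2.06). Their sum was 12252 CPM in sham and 8485 in injury members, with 5676 CPM in the injury members of the Ebf2 cluster against 15667 in remaining injury neurons.

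No immediate early gene of 19, which neurons switch on with activity, had 50 UMIs in Corin nuclei. The list summed to 201 CPM in sham and 99.1 in injury members (log2 ratio −1.02, −1.73 to −0.28), against 179 and 157 in remaining neurons. The 21 axon injury and stress genes summed to 480 and 526 CPM (log2 ratio 0.13, −0.27 to 0.55), with Atf3 and Sprr1a at 0 UMIs in every member. The 84 ribosomal protein genes summed to 1254 and 1477 CPM (0.24, −0.01 to 0.49), and the 30 translation factor genes to 890 and 1004 (0.17, −0.12 to 0.48).

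Because Ebf2 and Ebf3 led the injury members, RefSeq promoters (250 bases before to 50 after each start) were searched for TCCC and GGGA parted by any 2 bases, a motif bound by this family that reads the same on both strands. It was in 297 of 32851 promoters (0.904%) and, by gene, in 287 of 27025 genes (1.06%). None of the 11 leading genes that had a promoter entry had it, and Corin did not. At that share of genes, 11 are too few for a count of 0 to differ from other genes, so nothing is concluded from it.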

How the data were processed

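The authors sorted nuclei, built 10x 3′ libraries and counted UMIs per gene with Cell Ranger 6.0.2 against GRCm38 (mm10), and the submitters' processing notes also name Seurat 4.0. The deposited tables hold raw UMI counts without normalization. Whether intronic reads or strand were used was not given in the sources used here. Of 32285 gene rows 32158 took a symbol from GENCODE M21.

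Nuclei with 200 to 7500 genes and at most 2% mitochondrial UMIs were kept: 16373 sham and 21777 injury nuclei, with medians of 7190 and 6810 UMIs. Depth sets the precision, and the intervals hold counting error only. Libraries were integrated by anchors in Seurat 5.3.0 (R 4.3.3; 2000 variable genes, 1872 used, 30 components, resolution 0.5), and neurons were clustered again. Clusters with more than 50% of nuclei marked by Scrublet were called mixed (scanpy 1.11.5, 0.8% per 1000 nuclei), and those where markers of another cell type outweighed the neuronal ones were called non-neuronal. Both rules were applied to the first clustering of all nuclei and not to the neurons clustered again, so clusters of other cells remained among these. Both rules and the sub-clusters (10 components) were set after the data were seen. Doublets were kept in the main values.

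UMIs were summed per library and scaled to the UMI total (CPM). Intervals were exact binomial or Poisson (scipy 1.17.1). List medians used a prior of 0.5 UMI. The code for ratios and intervals was tested on simulated counts. edgeR 4.0.16 gave TMM factors. With 1 library per group no test was made.

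Named genes were the 15 with the largest smaller-of-2-libraries fold over remaining neurons, all natriuretic genes, Slc17a6, Gad1 and the ends of each list. The 8 largest differences each way were also named. They came from genes whose counting interval did not include equal levels and whose sign held under one mix of clusters. The 15 leading genes of the injury library alone were added after the values were seen. A cluster's own leading genes were to be named with 20 members in each library, which none had. The members and lists were chosen with earlier results of these data known. The other alternatives were the Corin threshold, doublets, thinning, the UMI filter, the prior, integration, scaling and the mix of clusters.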

Additional observations from a re-analysis of the deposited data

How the results depend on the processing

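No paired analysis was possible because the mice of a group went into 1 pool. With 1 library a group, nothing speaks to the spread between mice, and 12 sham members limit every contrast with them. The cause of each change below was not tested. With at least 1 Corin UMI, members made up 0.537% of sham and 0.955% of injury nuclei; with at least 3, 0.0305% and 0.230%; thinned to 3000 UMIs, 0.0286% and 0.228%. No sham member with at least 3 UMIs lay in the Ebf2 cluster, and without called doublets 75.0% of injury members did. Of the injury members 39.4% had Slc17a6 when thinned and 26.4% at 2 UMIs, 3.03% and 2.78% had Gad1, and 0% had both under either. The 9 genes leading in both libraries became 1 with at least 1 Corin UMI, 4 with at least 3 and 3 with at least 100 UMIs a gene, and the 30 of the injury library became 13 with at least 1 Corin UMI, 59 with at least 20 UMIs a gene and 14 with at least 100.

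The 175 higher and 136 lower genes of 2488 became 552 and 388 of 5428 with at least 20 UMIs a gene, 81 and 58 of 1130 with at least 100, 565 and 290 of 2488 under one mix of clusters, 82 and 60 of 1613 without the Ebf2 cluster, and 125 and 53 of 7451 with at least 1 Corin UMI. The higher share of these calls was 56.3%, and it was 70.9% with TMM factors (224 and 92), which moved the median of all genes from −0.05 to 0.12, 66.1% under one mix, 70.2% with at least 1 Corin UMI, and 47.4% with a prior of 2 UMIs. None of these shares was corrected for the UMI filter on the sum of both libraries, which genes found only in injury members passed more readily. Values under one mix of clusters also rest, for the sham side of the Ebf2 cluster, on 1 nucleus of 5821 UMIs. The channel list was at −0.044 with at least 1 Corin UMI, beside −0.016 over all genes, −0.23 with at least 3, −0.58 without doublets, −0.54 in neuron clusters alone, −0.32 with at least 20 UMIs a gene, −0.25 with TMM and −0.18 without the Ebf2 cluster. The GABA list was at 0.050 with at least 1 Corin UMI, −0.030 with at least 3, 0.044 without doublets, 0.19 with at least 100 UMIs a gene, −0.0011 with TMM and 0.17 under one mix. The glutamatergic list was at 0.057 with at least 1 Corin UMI, 0.11 with at least 3, 0.015 in neuron clusters alone, 0.11 with TMM and −0.20 by mean of single nuclei. The presynaptic list was at −0.092 with at least 1 Corin UMI, −0.072 with at least 3, −0.091 without doublets, −0.17 with at least 20 UMIs a gene, −0.15 with at least 100, 0.17 with TMM, 0.50 under one mix, −0.14 by mean of single nuclei, −0.076 without the Ebf2 cluster and −0.12 without the sham nucleus of most Corin UMIs. Without doublets 9630013A20Rik, Synpr and Mbp changed sign, to 1.62, 1.15 and 2.59, and without that sham nucleus 9630013A20Rik, Synpr, Sox2ot, Nckap5 and Mbp did, to 1.003, 2.77, 1.14, 0.40 and 4.44. Leaving out the Ebf2 cluster or that nucleus was chosen after seeing the data. With at least 1 Corin UMI, Nfib went from 5.48 to 1.30, Epha3 from 5.46 to 1.78, Synpr from −3.13 to −0.21 and Kcnip4 from −2.36 to −0.45. In all, 44 values for named genes and the median of all genes moved by more than counting error, and 8 were counted as a change of sign. Of the values for counts, shares and lists 49 moved and 8 were so counted. Within counting error or 1.5 times the count stayed 79 of these and 152 for named genes and that median. Not counted as changes of sign were those of 2 medians near 0. The presynaptic median went from 0.0054 to below 0 in the settings given above, TMM and one mix aside. The median of all genes went from −0.05 to 0.022 with at least 3 Corin UMIs, 0.12 with TMM and 0.15 under one mix.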
